A study of Mus musculus with 6 samples.

Results

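Histone genes were examined in polyadenylated RNA of mouse lung B cells, comparing 3 control libraries with 3 libraries of a severe allergic asthma model. Members were the genes of the deposited mRNA table whose symbol begins with a histone stem (H1f, H2a, H2b, H3f, H3c, H4c or the older Hist1h to Hist4h), each read at its transcript with the most reads on average. This gave 101 of 21774 mRNA genes. Of these, 65 are replication-dependent, meaning that their older symbol places them in the Hist1 to Hist3 gene clusters, and the other 36 are variants.

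Histones package DNA into nucleosomes. The core histones H2A, H2B, H3 and H4 form the particle, and the linker histone H1 binds where DNA enters and leaves it. Replication-dependent histone genes lie in clusters, lack introns and are transcribed mainly in S phase, when new DNA must be packaged. Their mRNAs are cut just after a conserved stem-loop that is bound by the stem-loop binding protein, and most carry no poly(A) tail. Variant histones, such as H3.3, H2A.Z and H2A.X, are mostly encoded by genes outside these clusters, most are made outside S phase as well, and their mRNAs are polyadenylated. Some replication-dependent genes also have a polyadenylation signal downstream of the stem-loop and give tailed transcripts, which oligo(dT) selection can capture. The values below come from RNA enriched for tails, so they are not total histone mRNA, and how much untailed RNA was carried over was not tested.

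All mice were wild type. For the severe asthma group, LPS (10 μg of bacterial lipopolysaccharide) was given together with HDM (25 μg of house dust mite allergen) by the airway on days 0 to 2, followed by HDM alone on days 7 to 14, each in a volume of 35 μl. Controls had the vehicle only. Cells were taken from dissociated lung with B220 microbeads. Strain, age, sex and whether a library came from 1 mouse or from pooled mice are not given in the sources used here, so the p-values speak of library-to-library spread, which may be technical.

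Depth was 16498219 to 18054903 reads over mRNA genes per library. Values are adjusted reads, the authors' counts brought to a common library size. All 10 B cell markers were detected, with a summed level of 9194 to 12656 CPM (reads per 1000000 mRNA reads) in control and 11589 to 12604 in severe asthma. Markers of other cells were present and moved with the groups. The 10 macrophage and monocyte markers summed to 499 to 1444 CPM in control and 4019 to 9460 in severe asthma, and 8 of 10 rose (4 with the replicate block, 2 without both libraries numbered 1). The 8 endothelial markers summed to 939 to 2589 in control and 283 to 446 in severe asthma, and 8 of 8 fell. The 8 epithelial markers summed to 1288 to 3777 in control and 231 to 491 in severe asthma, with 6 fallen, and the 8 fibroblast and smooth muscle markers summed to 266 to 956 and 49.5 to 109, with 6 fallen. The fallen counts of these 3 lists dropped with 1 library left out. Without severe asthma 3 they were 0, 2 and 2, without severe asthma 2 they were 1, 2 and 2, and without control 1 they were 2, 4 and 5. The macrophage and monocyte count was 4 without control 1, and 5 without severe asthma 2 or without severe asthma 3. The T and NK cell markers stayed between 41.8 and 62.9 CPM in all libraries. In the fit described below, 20.7% of all genes tested rose and 14.4% fell. No marker on these lists was at 0 in every library. Control 1 stood apart, with the highest endothelial, epithelial and fibroblast levels of the 6 libraries. The part of these cells in any result below was not tested. In bulk RNA, fewer cells of a type and less RNA per cell cannot be told apart.

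Most replication-dependent histone genes had somewhat higher values in severe asthma, and the number that passed the test one by one depended on whether libraries were paired by number. Of the 65, 62 had a mean value of at least 1 and were tested with limma on log2(value + 1), with Benjamini-Hochberg adjustment over 15759 genes and a threshold of 0.05. Of the tested genes, 7 rose, which is 11.3%, beside 20.7% of all genes tested. With the replicate number as a block, 17 rose, which is 27.4%, beside 22.4% of all genes. By limma 0 fell, beside 14.4% of all genes, and by edgeR, DESeq2 and limma-voom on recovered reads 0 fell as well. The count of fallen genes was 2 with scaling by total mRNA reads alone, 2 without control 1 and 1 without both libraries numbered 1. At an unadjusted p under 0.05, 20 were higher and 1 was lower. The estimate was above 0 for 56 of the 62 (90.3%), beside 55.8% of all genes. All severe asthma libraries exceeded all control libraries for 23 of 62 (37.1%), beside 31.6% of all genes, and the reverse held for 1, beside 21.6%. The count of risen genes was 1 without severe asthma 2, 1 without severe asthma 3, 4 without severe asthma 1 and 4 without control 3. Their median log2 fold change was 0.51, with quartiles of 0.27 and 0.86, and the median of all genes tested was 0.06. With scaling by total mRNA reads alone, and in the edgeR, DESeq2 and limma-voom fits, 54 of the 62 estimates were above 0. The genes share sequence and libraries, so their estimates are not independent of each other. The 3 genes below the mean of 1, H1f6, H2bc1 and H2ac1, are known from testis.

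Variant histone genes that could be tested were fewer and more precisely measured. Of the 36 variants, 24 had no read in any library, 2 more were below the mean of 1 and 10 were tested. Most of the undetected ones belong to the H2al and H2ab families, known from the testis. H2ax, H1f10, H2az1, H2az2 and H2aj rose, 5 of the 10 tested, beside 20.7% of all genes tested. By limma 0 fell, beside 14.4% of all genes. At an unadjusted p under 0.05, 0 were lower, and edgeR, DESeq2 and limma-voom gave 0 fallen as well. Without severe asthma 2, 3 passed. The median log2 fold change was 0.37. The median standard error was 0.124 for the variants and 0.331 for the replication-dependent genes, whose median value was 44.2 adjusted reads against 804 for the variants. Whether both classes differ in their share of risen genes was not tested.

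**Figure D1:**
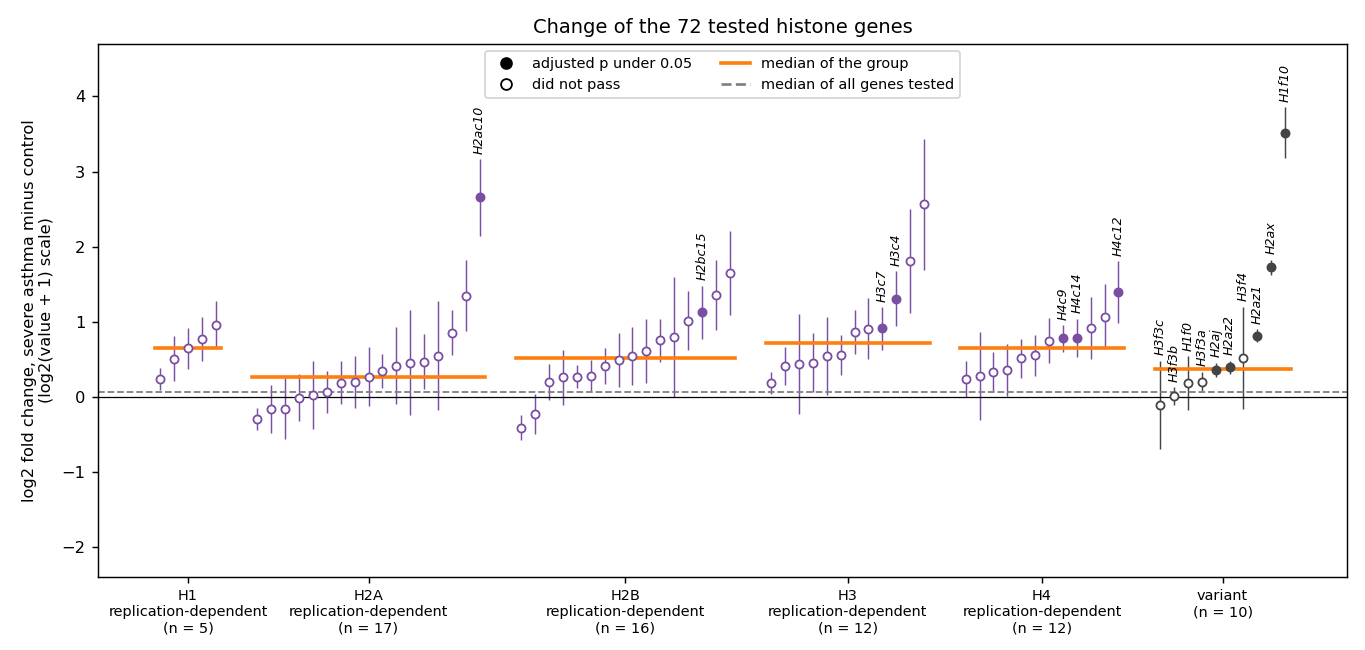
Log2 fold change (severe asthma minus control, log2(value + 1) scale) of each of the 72 tested histone genes, by type, with bars of 1 standard error. Filled points passed an adjusted p of 0.05, and every group median lies above the dashed median of all genes, 0.06; most open points lie above 0.

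The precision of these estimates followed the number of reads. Among replication-dependent genes with a mean of 10 to 100 adjusted reads, 5 of 38 rose (13.2%), beside 10.3% of the 3112 genes of all kinds at that level. At a mean of 100 and over, 1 of 12 rose (8.33%), beside 27.8% of 10305 genes, and 5 of 8 variants did. Below 10 adjusted reads, 1 of 12 rose, beside 3.29% of 2342 genes. The medians of the replication-dependent genes in these 3 classes, from the lowest level to the highest, were 0.67, 0.50 and 0.38 on the log2 scale, and those of all genes were -0.41, -0.26 and 0.13.

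**Figure D2:**
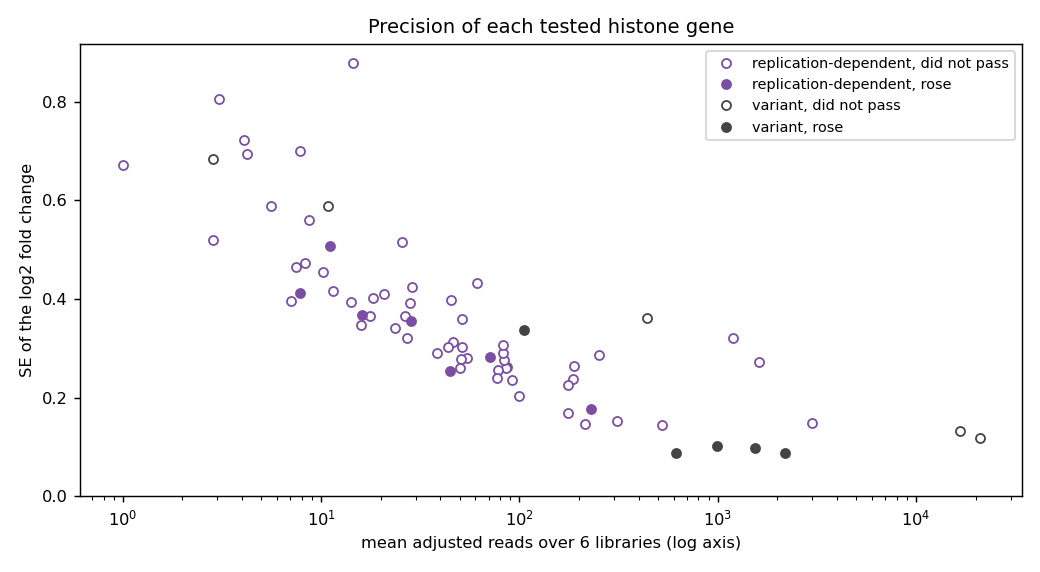
Standard error of the log2 fold change (y axis) against the mean adjusted reads over the 6 libraries (x axis, log scale) for each tested histone gene. The risen variants H2az1, H2aj, H2ax and H2az2 sit at standard errors near 0.1, whereas most replication-dependent genes lie at fewer reads and above 0.2.

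The stem-loop was looked up in the transcripts of these genes, because cleavage after it gives an untailed mRNA and a transcript that runs past it can be tailed. The letters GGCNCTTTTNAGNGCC (N is any base) were searched in GENCODE transcripts of GRCm38, on the transcript strand. They were found in 41 of the 65 replication-dependent genes, which had 5 distinct forms, and in 2 of the 33 variants with a transcript, H2ax and H2bfm. Of the 41, 20 had an annotated transcript that continued for more than 100 bases beyond the stem-loop and 21 ended within 100 bases. The stem-loops of the members with the most reads or with a risen call are shown here with 5 bases on either side in lower case, and the capitals mark the 16 matched letters.
H1f2: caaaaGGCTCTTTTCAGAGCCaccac
H1f4: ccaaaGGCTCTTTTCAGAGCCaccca
H1f3: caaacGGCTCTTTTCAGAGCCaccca
H2aw: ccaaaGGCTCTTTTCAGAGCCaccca
H3c4: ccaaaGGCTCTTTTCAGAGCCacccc
H3c7: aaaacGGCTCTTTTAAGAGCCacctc
H4c9: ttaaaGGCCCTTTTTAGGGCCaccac
H4c14: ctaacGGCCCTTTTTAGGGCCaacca
H2ax: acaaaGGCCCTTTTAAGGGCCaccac
The form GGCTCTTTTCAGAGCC was in 26 replication-dependent genes of the H1, H2A, H2B and H3 types. H4 genes carried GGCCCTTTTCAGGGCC in 6 cases and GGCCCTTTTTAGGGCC in 2, H4c9 and H4c14. The letters were not found in the transcripts of H2bc21, H1f5, H1f10, H2az1, H2aj, H3f3a or H3f3b. For cluster genes this does not show that a stem-loop is absent, because some GENCODE transcripts are shorter than the RefSeq span. The annotated transcript ran on beyond the stem-loop for 840 bases in H1f2, 1153 in H1f4, 4884 in H1f3, 330 in H4c9, 1257 in H4c14 and 822 in H2ax.

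Genes with such an extension were not the only ones with reads. Of the genes whose transcript continued beyond 100 bases, 19 were tested and 4 rose (H4c9, H4c14, H3c4 and H3c7). That is 21.1%, beside 20.7% of all genes tested, and the median log2 fold change was 0.45. Of those ending within 100 bases, 21 were tested and 0 rose by limma, with a median of 0.46. With the replicate block the counts were 7 (36.8%) and 4 (19.0%), beside 22.4% of all genes, the 4 being H2ac23, H2bc12, H2bc22 and H3c3. Of those without the letters, 22 were tested, 3 rose (H2ac10, H2bc15 and H4c12) and the median was 0.58. This share was 13.6%, and with the replicate block 6 rose (27.3%). Whether the classes differ in their share of risen genes was not tested. The median values of these 3 classes were 86.9, 26.6 and 28.6 adjusted reads. The class without the letters may hold genes whose stem-loop lies outside the transcript searched. For H2ac10, H2bc15 and H4c12 the GENCODE transcripts had 399, 381 and 312 bases, against RefSeq spans of 504, 478 and 409. The deposited transcripts carry RefSeq accessions, and the RefSeq transcript of H1f2 spans 725 bases against 1560 in GENCODE, so reads from extensions outside the authors' annotation may be missing from the values.

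The linker histones had the most reads of the replication-dependent class. H1f2 (H1.2, chr13:23738807-23739531 in mm10, 1 exon) had 2396, 3181 and 2661 adjusted reads in control 1, 2 and 3 and 2717, 3813 and 3182 in severe asthma 1, 2 and 3. The groups overlapped, and the fold change of H1f2 on the log2 scale was 0.23 (SE 0.148, adjusted p = 0.256, limma). H1f4 (H1.4, chr13:23621777-23622558) had 858, 1487 and 1471 in control and 1492, 2202 and 2196 in severe asthma, a log2 fold change of 0.65 (SE 0.273, adjusted p = 0.119, limma). Every severe asthma library lay above every control library, but severe asthma 1 only just exceeded control 2. H1f3 (H1.3, chr13:23555032-23555807) had 505, 1064 and 939 in control and 1231, 1679 and 1792 in severe asthma, a log2 fold change of 0.96 (SE 0.321, adjusted p = 0.069, limma). Here too the groups did not overlap, and control 1 was the lowest library.

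H1f5 (H1.5) had 127, 236 and 195 adjusted reads in control and 219.5, 358 and 369 in severe asthma, with control 2 above severe asthma 1. The log2 fold change of H1f5 was 0.77 (adjusted p = 0.0758, limma). H1f1 (H1.1) had 42.2 to 90.4 in control and 86.3 to 104 in severe asthma and did not pass. None of the 5 tested linker genes of this class passed, while 20.7% of all genes tested rose and 14.4% fell. All 5 estimates were positive, beside 55.8% of all genes, and 2 had an unadjusted p under 0.05 (limma). In a limma fit with the replicate number as a block, 4 of the 5 rose, beside 22.4% of all genes. These were H1f4 with a limma adjusted p of 0.00046, H1f3 with 0.00083, H1f5 with 0.00312 and H1f2 with 0.0252. With control 1 and severe asthma 1 left out, which leaves 2 libraries a group, H1f3, H1f4 and H1f5 passed as well.

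H2A genes of the clusters had the lowest median of the 5 types. Of 17 tested, 1 rose (5.88%), beside 20.7% of all genes tested, and the median log2 fold change was 0.27. That gene, H2ac10, had 0.972, 2.0 and 4.67 adjusted reads in control and 22.9, 15 and 20.8 in severe asthma, a log2 fold change of 2.65 (SE 0.508, adjusted p = 0.00801, limma). It was scarce in all 3 control libraries and higher in all 3 severe asthma libraries, and it passed in all 14 alternative settings. Of its 100-base windows, 65.3% also occur in other genes' transcripts, so reads could be assigned to either. H2aw, the H2A gene of a small cluster on chromosome 11 and the H2A member with the most reads, had 452, 635 and 648 in control and 475, 487 and 435 in severe asthma. The log2 fold change of H2aw was -0.29 (SE 0.145, adjusted p = 0.149, limma), and control 1 fell within the severe asthma range. Without control 1 the log2 fold change was -0.46, with an adjusted p of 0.00357. H2aw overlaps Trim17, and whether strand was used in counting is not stated. H2ac20, on chromosome 3, had 138 to 179 in control and 140.1 to 239.8 in severe asthma and did not pass.

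Among 16 tested H2B genes 1 rose (6.25%), H2bc15, beside 20.7% of all genes tested. The type's median was 0.52. H2bc15 had 14.7, 16 and 21.2 adjusted reads in control and 38.7, 27.9 and 52.6 in severe asthma, a log2 fold change of 1.12 (SE 0.356, adjusted p = 0.042, limma). The groups did not overlap, but the call held in only 3 of 14 alternative settings. H2bc21, an H2B gene of the chromosome 3 cluster, was the only cluster gene with every severe asthma library below every control library. It had 178, 226 and 201 in control and 126, 166 and 162 in severe asthma, a log2 fold change of -0.41 (SE 0.169, adjusted p = 0.0925, limma), and without control 1 its adjusted p was 0.0411. H2bc4 had 253 to 301 in control and 277 to 401 in severe asthma, H2bc6 had 119.9 to 222 and 187 to 244, and neither passed. Without control 2 the adjusted p of H2bc6, which overlaps the gene Gm33387, was 0.0347.

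H3 and H4 genes had positive estimates throughout. All 12 tested H3 genes and all 12 tested H4 genes had estimates above 0, beside 55.8% of all genes tested. This also held with the other scalings and tools (11 of 12 H4 genes without control 1, with severe asthma 1 kept or left out). The medians were 0.71 and 0.65. Of the H3 genes 2 rose (16.7%) and of the H4 genes 3 (25.0%), beside 20.7% of all genes tested. H4c9 (chr13:22040960-22041362, 1 exon), the H4 gene with the most reads, had 132, 195 and 186 adjusted reads in control and 266, 322 and 282 in severe asthma. The log2 fold change of H4c9 was 0.78 (SE 0.176, adjusted p = 0.014, limma). The lowest severe asthma library lay above the highest control library, and the call held in 12 of 14 alternative settings, the exceptions being those without severe asthma 2 and without severe asthma 3. H4c14 (chr3:96262934-96263317), which shares none of its 100-base windows with another gene, had 30.5, 34 and 33.1 in control and 63.7, 56.5 and 50.6 in severe asthma, a log2 fold change of 0.78 (adjusted p = 0.0451, limma). Its 3 control values were close together, and its call held in 2 of 14 settings. H4c12 had 2.94, 5.0 and 3.67 in control and 13.6, 9.64 and 11.9 in severe asthma (log2 fold change 1.39, adjusted p = 0.0335, limma). The call of H4c12 held in 6 of 14 settings and was lost in 5 of the 6 fits with 1 library left out, and 64.3% of its windows are shared.

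Among H3 genes, H3c7 had 36.3, 66 and 47.8 adjusted reads in control and 85.7, 109.7 and 83.3 in severe asthma, with a log2 fold change of 0.91 (SE 0.282, adjusted p = 0.0391, limma). H3c4 had 6.87, 8.0 and 12 in control and 22, 23.5 and 23.8 in severe asthma, with a log2 fold change of 1.30 (SE 0.367, adjusted p = 0.0282, limma). Neither pair of groups overlapped, and the calls held in 6 and 9 of 14 settings. H3c3 had the largest estimate of the type, 2.56 on the log2 scale, from 0, 5.0 and 9.36 in control to 12.6, 34 and 25.8 in severe asthma, and an adjusted p of 0.0569 (limma). Its control values differed widely, with no read in control 1, and with the replicate block its adjusted p was 0.00646. H3c1 and H3c6, the H3 genes with the most reads, had log2 fold changes of 0.18 and 0.56 and did not pass. Without severe asthma 1 the adjusted p of H3c6 was 0.0140.

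**Figure D3:**
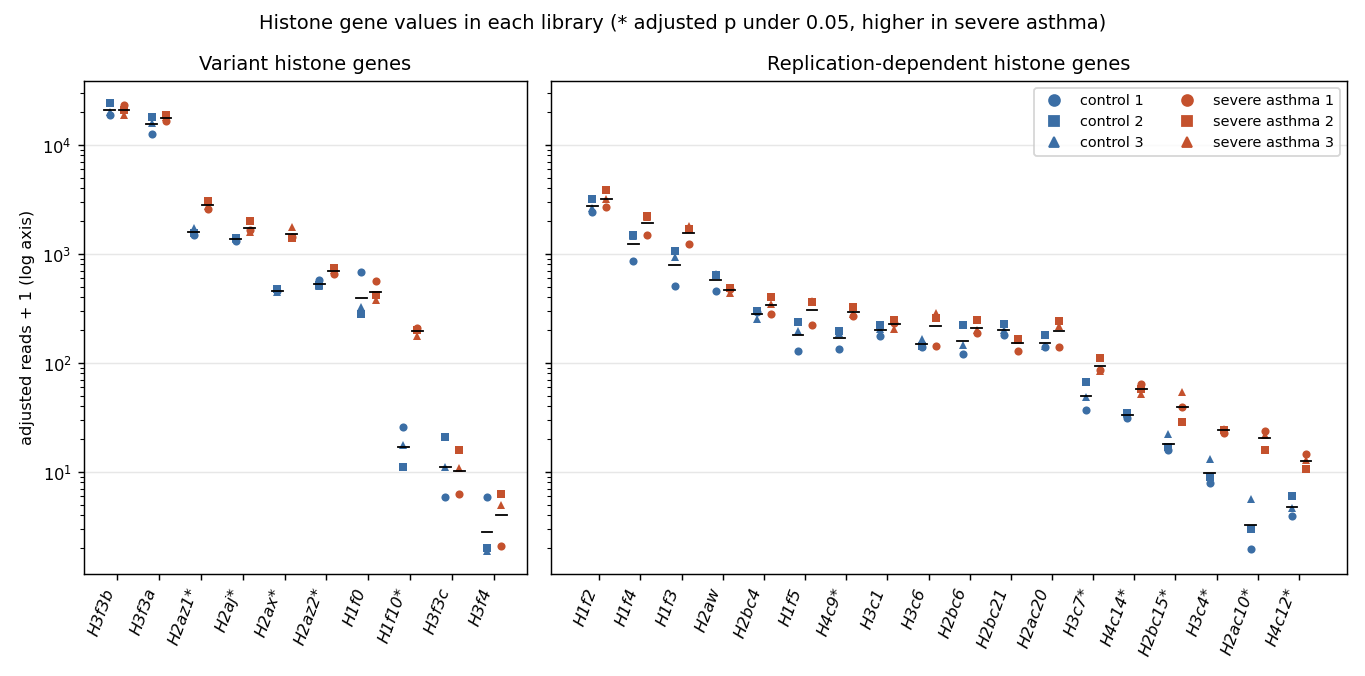
Adjusted reads plus 1 (log axis) in each library for the 10 tested variant genes and for the replication-dependent genes with the most reads or a risen call, with black lines at the group means on the log scale. Asterisks mark an adjusted p under 0.05; the groups separate for H2ax, H1f10 and H2az1 and overlap for H3f3a, H3f3b and H1f2, and control 1 is the lowest control for H1f2, H1f3, H1f4, H1f5 and H4c9.

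All 4 tested H2A variants rose, with no overlap between the groups. Over all genes tested, 20.7% rose and 31.6% had every severe asthma library above every control library. H2ax (chr9:44334715-44336077, 1 exon) encodes H2A.X, which is phosphorylated at DNA breaks and whose mRNA exists in a stem-loop and a polyadenylated form. H2ax had 451, 479 and 444 adjusted reads in control and 1434, 1384 and 1753 in severe asthma, a log2 fold change of 1.72 (SE 0.102, adjusted p = 0.000216, limma). The control libraries were nearly equal and all severe asthma libraries were far above them. H2az1 (chr3:137864487-137866922) encodes H2A.Z, a variant found at promoters. It had 1492, 1564 and 1711 in control and 2567, 3062 and 2762 in severe asthma, a log2 fold change of 0.81 (SE 0.0881, adjusted p = 0.00107, limma). Both calls held in all 14 alternative settings. Of the 100-base windows of H2az1, 29.7% also occur in other transcripts, most often in Gm8203.

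The other H2A variants had smaller estimates. H2az2, which encodes the second H2A.Z protein, had 578, 514 and 511 in control and 659, 734 and 710.4 in severe asthma, a log2 fold change of 0.39 (SE 0.0878, adjusted p = 0.0133, limma). H2aj, an H2A variant gene on chromosome 6, had 1309.5, 1397 and 1365 in control and 1649, 2003 and 1584 in severe asthma, a log2 fold change of 0.36 (SE 0.0967, adjusted p = 0.0252, limma). Both sets of control libraries lay below all severe asthma libraries, and the calls held in 11 and 10 of 14 settings. With scaling by total mRNA reads alone neither passed.

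Of the linker variants, H1f10 rose and H1f0 did not pass. H1f10 (chr6:87980421-87981482, 1 exon) encodes H1.10, a divergent linker histone. It had 24.6, 10.0 and 16.5 adjusted reads in control and 210.0, 197 and 177 in severe asthma, a log2 fold change of 3.52 (SE 0.337, adjusted p = 0.000704, limma), the largest estimate of the 72 tested members. No severe asthma library came near the control range, none of its 100-base windows was found in another gene, and the call held in all 14 settings. H1f0 (chr15:79028212-79030504), which encodes H1.0, a linker histone that accumulates in cells that have stopped dividing, had 675, 281 and 326 in control and 568, 418 and 376 in severe asthma. The groups overlapped, with the highest value of all in control 1, and the log2 fold change was 0.18 (SE 0.362, adjusted p = 0.74, limma). In both groups library 1 was the highest. Without both libraries numbered 1 the adjusted p of H1f0 was 0.0254, with a log2 fold change of 0.39.

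The H3.3 genes were the most abundant histone transcripts and did not pass. H3f3b (chr11:116021961-116026039) and H3f3a (chr1:180802560-180813605) encode the same H3.3 protein, which is deposited outside replication. H3f3b had 18814, 23989 and 20009.7 adjusted reads in control and 23142, 21021 and 18732 in severe asthma, with a log2 fold change of 0.0043 (SE 0.118, adjusted p = 0.981, limma). H3f3a had 12668, 18143 and 16033 in control and 16567, 18769 and 17965 in severe asthma, with a log2 fold change of 0.20 (SE 0.131, adjusted p = 0.268, limma). In both genes the groups overlapped and control 1 was the lowest of the control libraries. The direction of H3f3b turned in 9 of the alternative settings, and no direction is drawn from it. H3f3c and H3f4 had mean values of 10.8 and 2.86 adjusted reads, and neither passed. H3f4 overlaps Trim17.

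Levels were compared between genes per length, as CPM per kilobase of transcript. By this measure H3f3b led, with 642 ± 73.1 in control and 582 ± 62.8 in severe asthma (SD, n = 3), followed by H3f3a with 336 ± 55.6 and 346 ± 17.3. The ranges of these genes over the 6 libraries, 525 to 723 and 275 to 384, did not meet. H1f2 followed with 231 ± 30.3 and 246 ± 37.8, and its range of 204 to 285 overlapped that of H3f3a. Next in control came H1f4 (99.4 ± 27.5), H2az1 (91 ± 6.94), H2aw (69.6 ± 12.9) and H1f3 (65.8 ± 22.5), of which H1f4 and H2az1 overlapped in their control libraries, as did H2aw and H1f3. In severe asthma the corresponding levels were 139 ± 27.8 for H1f4, 145 ± 10.6 for H2az1, 50.7 ± 2.55 for H2aw and 112 ± 20.7 for H1f3. H2ax stood at 20.6 ± 0.504 in control and 61.9 ± 8.79 in severe asthma, H4c9 at 25.9 ± 5.0 and 39.8 ± 3.25, and H1f10 at 0.986 ± 0.431 and 10.1 ± 0.885. H1f10 thus lay well below H3f3a, H3f3b and H2az1 in level in both groups. Length was taken from RefSeq for genes of 1 exon and from GENCODE otherwise, and these levels do not stand for total replication-dependent mRNA.

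Summed over genes, the replication-dependent class took 411, 590 and 542 CPM in control and 525, 694 and 652 in severe asthma. The means were 514 ± 92.7 and 623 ± 88.2 (SD, n = 3), a ratio of 1.21, and the groups overlapped. Between same-numbered libraries the sum was higher in severe asthma by 114, 104 and 110 CPM for numbers 1, 2 and 3, and the H1 sum by 79.5, 78.8 and 94.5 CPM. The labels do not give this pairing, and how close these differences lie depends on it. With numbers 2 and 3 crossed, control 2 against severe asthma 3 was 590 against 652, and control 3 against severe asthma 2 was 542 against 694. Linker genes made up 60.7% of the replication-dependent sum in control. The H4 sum was 29.3, 40.3 and 36.6 in control and 44.8, 57.1 and 47.5 in severe asthma, and the H3 sum was 29.5, 37.0 and 36.7 against 38.8, 52.4 and 47.9. These 2 sums did not overlap between groups, with ratios of 1.41 for H4 and 1.35 for H3. The sums of H1 (ratio 1.27), H2B (1.06) and H2A (0.918) overlapped. The variants summed to 2503 ± 284 and 2553 ± 81.9, of which H3f3a and H3f3b made up 89.2% in control. Without that pair the variants summed to 280, 257 and 271 in control and 397, 424 and 412 in severe asthma, a ratio of 1.53, with no overlap.

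**Figure D4:**
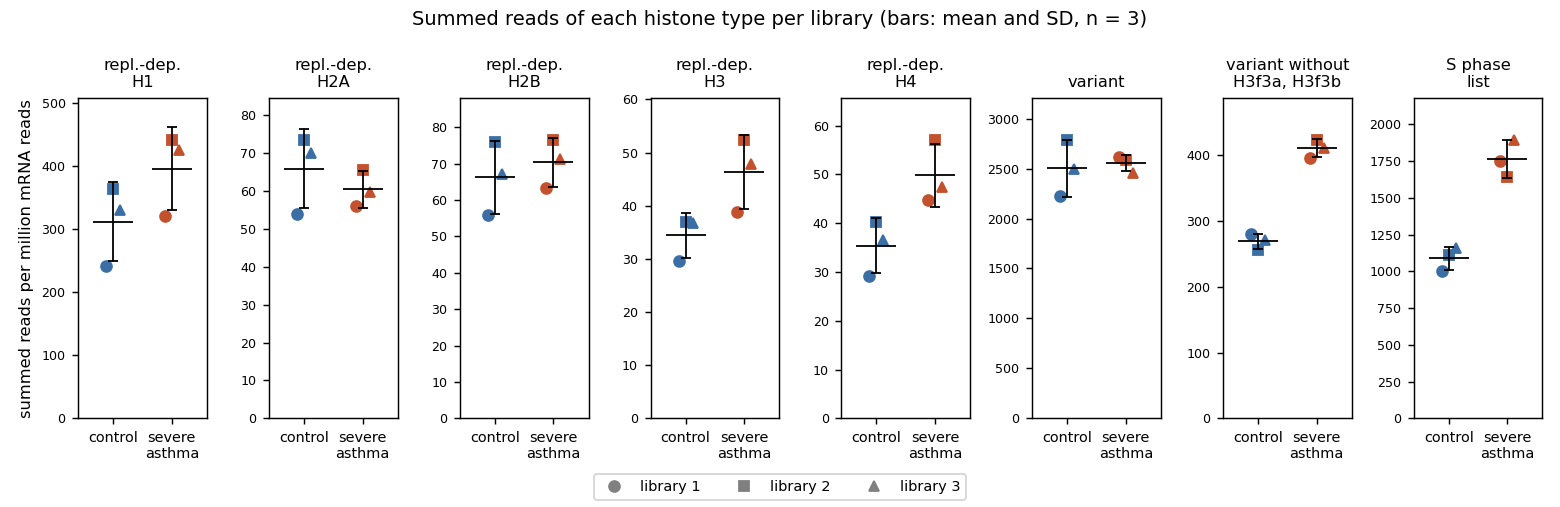
Summed CPM (y axis, from 0, a separate scale in each panel) of the replication-dependent genes by type, of the variants with and without the H3.3 genes, and of the S phase list, in each library, with mean and SD of 3. Library 1 (circle) is the lowest of its group for all 5 replication-dependent types, and the groups separate for H3, H4, the variants without H3f3a and H3f3b and the S phase list.

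Values of the cluster genes moved with the library number. Control 1 was the lowest control library for 49 of the 62 tested replication-dependent genes (79%), beside 43.2% of all genes tested, and severe asthma 1 was the lowest of its group for 35 (56.5%), beside 35.8%. Deviations from the group means correlated between same-numbered libraries across 13417 genes, with r = 0.587 for number 1, 0.236 for number 2 and 0.269 for number 3. All 3 were positive, but control 2 correlated better with severe asthma 3 (r = 0.306), and control 3 with severe asthma 2 (r = 0.338). The labels do not say what a number shares. The calls above come from the fit without pairs. With the replicate number as a block, limma called 17 replication-dependent genes risen in place of 7, among them H1f2, H1f3, H1f4, H1f5 and H3c13, and the variants gave the same 5. With both libraries numbered 1 left out the count was 16 (25.8%, beside 3442 of 15628 genes in all), and 1 gene, H2aw, fell. Control 1 also had the highest endothelial, epithelial and fibroblast marker sums, and their part in these counts was not tested.

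Near-identical copies limit how far single cluster genes can be told apart. At least 50% of the 100-base windows of 25 of the 65 genes occur in another gene's transcript, and 7 genes share none. Of the 19 tested genes with under 20% of windows shared, 2 rose (H4c9 and H4c14) and the median log2 fold change was 0.41. Of the 43 with at least 20% shared, 5 rose and the median was 0.55. By position, the chromosome 13 cluster had 50 tested genes, 6 risen and a median of 0.55. The chromosome 3 cluster had 10 tested genes, 1 risen and a median of 0.46. Both genes of the chromosome 11 cluster, H2aw and H2bu2, had negative estimates and did not pass. In the fit without a block, the share of risen genes in each set by sharing or position was below the 20.7% of all genes tested.

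Promoter letters were compared because the members of a type are known to share control elements. RefSeq promoters (GRCm38.p6, 250 bases before to 50 after the start) were in the table for 60 replication-dependent genes and 35 variants. On either strand, CCAAT was present in 52 of 60 (86.7%), beside 37.9% of all 27025 promoters, and TATAAA in 35 of 60 (58.3%), beside 14.2%. CCAAT was in every H1, H2A, H2B and H3 promoter and in 3 of 11 H4 promoters. The octamer ATTTGCAT, the classical element of H2B promoters, was in 7 of 18 H2A and 6 of 15 H2B promoters and in no other type of this class, beside 1.75% of all promoters. Some H2A and H2B genes are close neighbours, such as H2ac15 (chr13:21753377-21753912) and H2bc15 (chr13:21754076-21754553). Where both genes of a pair start at the gap between them, their promoter windows share bases. A match there, on either strand, counts for both genes, so such promoters are not separate. How many matches were shared was not counted. Of the variants, 13 of 35 had CCAAT (37.1%), 4 TATAAA and 1 the octamer. Because 24 of the 36 variants had no read in any library, most of these promoters belong to undetected genes. Each motif was counted on its own, whether or not its matches overlapped those of another. Promoters of a linker gene, an H4 gene, H2A.Z and H1.10 are shown for the contrast between classes, with matches to CCAAT and TATAAA or their reverse complements in capitals.
H1f4 promoter, chr13:23622509-23622808, minus strand: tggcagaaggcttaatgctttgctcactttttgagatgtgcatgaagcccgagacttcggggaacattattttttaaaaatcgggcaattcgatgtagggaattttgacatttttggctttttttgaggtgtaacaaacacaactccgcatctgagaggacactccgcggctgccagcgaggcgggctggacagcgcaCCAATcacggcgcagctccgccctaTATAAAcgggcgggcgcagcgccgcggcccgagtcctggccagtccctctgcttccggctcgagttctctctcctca
H4c9 promoter, chr13:22041313-22041612, minus strand: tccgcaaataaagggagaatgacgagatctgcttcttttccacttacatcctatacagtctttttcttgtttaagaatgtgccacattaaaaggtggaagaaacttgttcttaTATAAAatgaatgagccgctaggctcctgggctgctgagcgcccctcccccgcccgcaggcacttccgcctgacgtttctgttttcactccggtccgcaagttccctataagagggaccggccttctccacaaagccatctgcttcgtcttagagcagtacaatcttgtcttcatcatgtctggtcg
H2az1 promoter, chr3:137864237-137864536, plus strand: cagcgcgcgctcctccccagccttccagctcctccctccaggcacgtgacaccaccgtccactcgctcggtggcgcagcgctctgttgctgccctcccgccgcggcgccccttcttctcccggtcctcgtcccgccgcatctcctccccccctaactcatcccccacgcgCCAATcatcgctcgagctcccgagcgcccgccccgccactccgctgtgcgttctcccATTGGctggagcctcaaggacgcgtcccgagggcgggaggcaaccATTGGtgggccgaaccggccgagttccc
H1f10 promoter, chr6:87981433-87981732, minus strand: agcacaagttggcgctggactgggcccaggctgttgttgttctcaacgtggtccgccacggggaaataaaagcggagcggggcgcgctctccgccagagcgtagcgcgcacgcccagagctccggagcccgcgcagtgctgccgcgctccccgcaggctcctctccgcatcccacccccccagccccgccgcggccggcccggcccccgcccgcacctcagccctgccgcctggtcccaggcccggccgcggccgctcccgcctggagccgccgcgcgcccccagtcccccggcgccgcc
H1f4 held CCAAT and TATAAA close together upstream of the start. H4c9 held TATAAA alone, farther upstream of the start than the TATAAA of H1f4. H2az1 held CCAAT 3 times counting both strands. H1f10, the member with the largest fold change, held none of the searched letters. Matches are of letters only, and whether any of them acts in transcription was not tested.

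Transcripts of genes that act in making and processing histone mRNA were read next. Of 23 tested genes of histone mRNA 3′ end processing, 9 rose (39.1%), beside 20.7% of all genes tested. The list's median log2 fold change was 0.28. Limma called 0 fallen, beside 14.4% of all genes. At an unadjusted p under 0.05, 0 were lower, and edgeR, DESeq2 and limma-voom called 0 fallen. Slbp, the stem-loop binding protein, had 786, 894 and 879.7 adjusted reads in control and 1322, 1242 and 1339 in severe asthma, a log2 fold change of 0.61 (SE 0.0781, adjusted p = 0.00196, limma). Sympk, the scaffold of the cleavage complex, rose by 0.47 (adjusted p = 0.00248, limma), Eri1, an exonuclease that binds the stem-loop, by 0.51 (adjusted p = 0.00911, limma), and Cpsf2, a subunit of the cleavage complex, by 0.42 (adjusted p = 0.018, limma), all on the log2 scale. Snrpf and Snrpb, Sm proteins of small nuclear ribonucleoproteins, rose by 0.49 and 0.28. Npat and Casp8ap2, which act in transcription of the histone clusters, had log2 fold changes of -0.03 and 0.02 with overlapping groups, and neither passed. Without severe asthma 2 the list had 3 risen genes and without severe asthma 3 it had 4. Lsm10 and Lsm11, specific to the U7 particle, had 0.42 and 0.25 and did not pass.

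Among histone chaperones and deposition factors, more genes rose than fell. Of 42 tested, 23 rose (54.8%), beside 20.7% of all genes tested. Of the rest, 1 fell, beside 14.4% of all genes, and 18 did not pass. The list's median value was 1602 adjusted reads, and 27.8% of all genes with a mean of 100 and over rose. Its median log2 fold change was 0.33. Asf1b, the H3-H4 chaperone of proliferating cells, had 54, 69 and 78.3 adjusted reads in control and 425, 374 and 464 in severe asthma, a log2 fold change of 2.64 (SE 0.181, adjusted p = 0.000228, limma). Chaf1a, the large subunit of the CAF-1 complex that deposits new H3-H4 behind the fork, had 99.3, 112 and 104 in control and 446, 359 and 470.3 in severe asthma, a log2 fold change of 2.00 (SE 0.145, adjusted p = 0.000291, limma). All 3 severe asthma libraries were far above the controls for both. Anp32b, Rbbp7, Ruvbl2 and Mms22l rose by 0.85, 0.58, 0.49 and 0.83, and Anp32e, the chaperone that removes H2A.Z, by 0.49 on the same scale. Hira, which deposits H3.3, rose by 0.23 (adjusted p = 0.0373, limma), and Daxx and Atrx, the other H3.3 deposition pair, had 0.12 and -0.08 and did not pass. Ubn2, a partner of Hira, fell by 0.37 (adjusted p = 0.014, limma), and did not pass without severe asthma 2 (adjusted p = 0.0659, limma).

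Other histone-fold genes were read in the same fit. The list of 8 tested genes also held 5 members of the histone class, of which H2ax, H2az1, H2az2 and H2aj rose and H2bu2 did not pass. Of the other 3, Macroh2a1 rose from 4092 ± 429 to 5638 ± 33 adjusted reads (SD, n = 3), a log2 fold change of 0.47 (adjusted p = 0.00722, limma). Macroh2a2 fell, with 101, 22 and 31.1 in control and 14.6, 8.59 and 9.92 in severe asthma (log2 fold change -1.84, adjusted p = 0.0392, limma), and its highest value was in control 1, the library with the highest levels of stromal and epithelial markers. Macroh2a2 did not pass with limma-voom (adjusted p = 0.0898), nor by limma without control 3, severe asthma 1, severe asthma 2 or severe asthma 3 (adjusted p = 0.0633, 0.0598, 0.132 and 0.116). Cenpa, the centromeric H3 variant, named after its values were seen, had a log2 fold change of -0.43 (adjusted p = 0.0659, limma), with all severe asthma libraries below the controls.

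Nearly all cell cycle genes on the lists rose. Over all genes tested, 20.7% rose and 14.4% fell. Of 35 S phase genes, 31 rose (88.6%) and 1, Cdt1, fell by 0.31 (adjusted p = 0.0223, limma). The median log2 fold change of the S phase list was 1.22. Cdt1 did not pass without control 2, severe asthma 2 or severe asthma 3 (limma adjusted p = 0.0518, 0.0893 and 0.073). Mcm6, a subunit of the replicative helicase, had 1015, 1035 and 1042 adjusted reads in control and 2200.2, 2106 and 2322 in severe asthma (log2 fold change 1.10, adjusted p = 0.000216, limma). Mcm3, Mcm5 and Mcm2, further helicase subunits, rose by 1.30, 1.27 and 1.18, Pola1, the primase-associated polymerase, by 1.22, and Clspn, a checkpoint mediator, by 3.20, with no overlap for any of them. All 20 mitosis genes rose, with a median of 3.21. Summed, the S phase list took 1003 to 1157 CPM in control and 1639 to 1895 in severe asthma, a ratio of 1.62, beside the 1.21 of the replication-dependent histone sum. These ratios were not tested against each other, and the lists were read as counts and medians only.

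**Figure D5:**
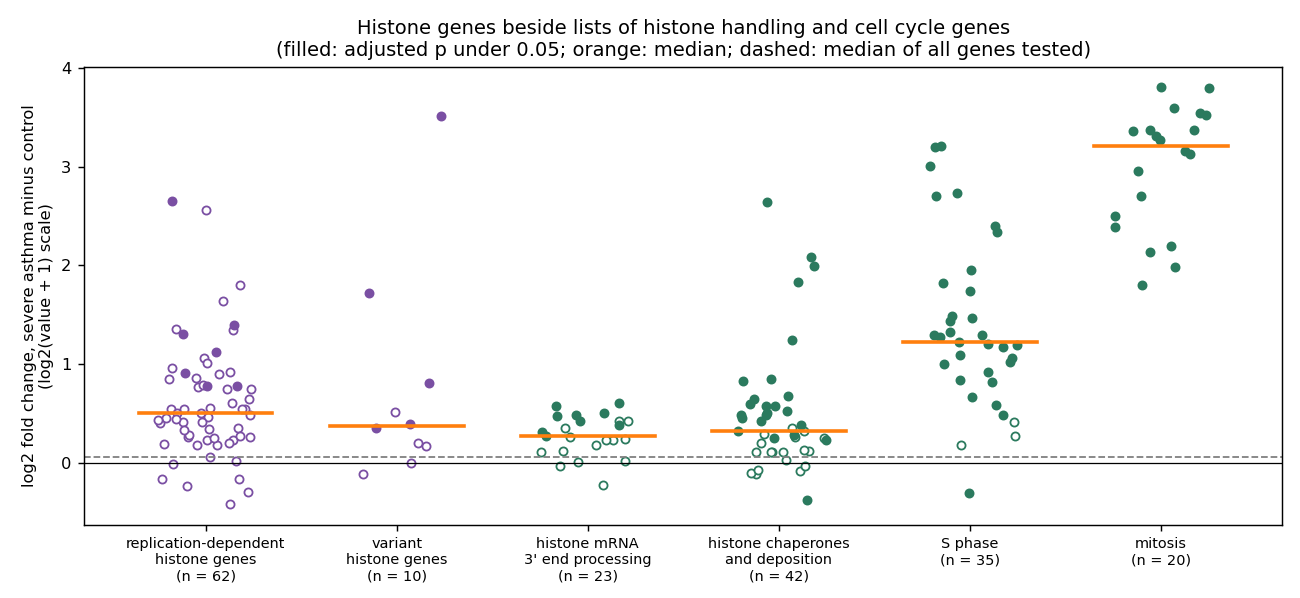
Log2 fold change (y axis, log2(value + 1) scale) of each tested gene of the histone classes and of 4 lists, with orange medians and a dashed line at the median of all genes, 0.06. The medians run from 0.28 for 3′ end processing and 0.33 for chaperones to 1.22 for S phase and 3.21 for mitosis genes, and the replication-dependent histone genes centre on 0.51 with mostly open points.

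In the authors' deposited table of transcripts, 12 members had a q-value under 0.05. The share of all transcripts with such a q-value is not given here, so this count has no background beside it. The authors' deposited table of called genes listed 5 members, H1f10, H2ax, H2ac10, H3c3 and H3c4. In the authors' deposited table of transcripts, H1f3 and H1f4 had q-values of 0.00101 and 0.0162 with log2 fold changes of 0.91 and 0.63.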

How the data were processed

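RNA sequencing of polyadenylated RNA was analysed in 6 libraries, 3 per group. Per the labels' protocols, mRNA was enriched with oligo(dT) beads and libraries were made with a NEBNext Ultra kit; the submitters' processing notes name HISAT2 2.1.0, HTSeq 0.11.2, bcl2fastq and the mm10 build without saying what each did. Among the authors' files is an mRNA table of 84748 transcripts with an adjusted signal per library and, per the file headers, a log2 fold change, p-value and q-value. The deposited signal could be inverted, within 0.001, to whole reads for 100% of 440735 values, by undoing edgeR's quantile adjustment with a dispersion of 0.0474. No header names the tool. The design assumed counts; since the deposited signal is adjusted, the test fixed for normalized values was used.

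Of 21774 genes, the 15759 averaging 1 or more were tested with limma 3.58.1 (limma-trend, robust, two-sided) on log2(value + 1), which understates the change of low genes, in R 4.3.3, without a block. Alternatives on recovered reads were edgeR 4.0.16 quasi-likelihood, DESeq2 1.42.0 and limma-voom; others were scaling by total reads alone, a pseudocount of 0.5, no filter, the replicate block, each library left out and, chosen after seeing the data, both libraries numbered 1 left out and only genes with under 20% shared windows. Same-numbered libraries deviated together (r of at least 0.236), but control 2 correlated better with severe asthma 3 (0.306) than with severe asthma 2, and control 3 with severe asthma 2 (0.338). The pairing rests on these correlations, not on the labels. Replicate pairs differed by more than sampling noise. The fit and the recovery were tested on simulated data.

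Class was taken from the older symbols in RefSeq and GENCODE, because the files use newer ones, in which the prefixes of the naming rule no longer separate the classes. All 101 members matched RefSeq and 98 a GENCODE transcript. Members and lists were chosen with earlier results of these data known. Named genes were the 12 replication-dependent members of the highest mean, the 5 risen with the smallest p, all tested variants, and up to 6 called genes per list; others were named after their values were seen, such as H2bc15, H4c14, H3c3, Npat, Lsm10, Lsm11, Casp8ap2, Anp32e, Hira, Daxx, Atrx, Ubn2 and Cenpa. Besides the lists in the results, neutrophil markers (2 of 8 rose, 1 fell) and erythroid markers (sums of 65.0 to 449 CPM, groups overlapping) were read. Sequences are RefSeq or GENCODE, GRCm38, which gave 2976 of 2977 called genes the same position as the files. Non-coding transcripts and term tables were not analysed here.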

Additional observations from a re-analysis of the deposited data

How the results depend on the processing

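The median log2 fold change of the replication-dependent genes stayed positive in every alternative, from 0.37 to 0.70, and that of the variants from 0.23 to 0.51. Scaling by total mRNA reads alone moved the median of all genes from 0.06 to -0.08; relative to it, the replication-dependent median was 0.45 in both scalings. The count of risen replication-dependent genes, 7, depended most on the setting: 4 with edgeR, 3 with DESeq2, 3 with limma-voom, 4 with total reads alone, 2 among genes with under 20% of windows shared, 17 with the replicate block, 16 without both libraries numbered 1, and 1 to 9 with 1 library left out (1 without severe asthma 2 and 1 without severe asthma 3). Fallen ones, 0 by limma, were 2 with total reads alone, 0 to 2 with 1 library left out (2 without control 1) and 1 without both libraries numbered 1. Risen variants, 5, were 3 with total reads alone and 3 to 6 with 1 library left out. Over all genes, 3262 risen became 1923 with total reads alone and 1575 to 3401 with 1 library left out, and 2263 fallen became 1436 with limma-voom and 728 to 2335. Risen 3′ end processing genes, 9, were 4 with total reads alone and 3 to 12 with 1 library left out. Risen chaperones, 23, were 18 with total reads alone and 16 to 24 with 1 library left out. Fallen chaperones, 1, were 0 to 2, and fallen S phase genes, 1, were 0 to 1. H3f3b turned to -0.061 with edgeR, -0.086 with DESeq2, -0.059 with limma-voom, -0.14 with total reads alone, -0.14 without both libraries numbered 1 and lay between -0.070 and 0.11 with 1 library left out, below 0 in 4 settings (-0.00031 without severe asthma 2, -0.069 without control 1, -0.025 without control 3). H1f0 turned to -0.012 with DESeq2 and -0.068 without control 2 (up to 0.56 with 1 library left out), and H3f3c to 0.35 without control 2 and 0.24 without severe asthma 1 (down to -0.57). The erythroid genes Hbb-bs (0.25 and 0.32, down to -0.79) and Hba-a1 (0.12, down to -1.15) turned with 1 library left out. The cause of these changes was not tested; left-out fits have fewer samples. The replicate block changed no call of the variants, and its other changed calls among named genes were Lyz2 (adjusted p = 0.0705) and Chil3 (0.0517), lost, and Col1a2, Hbb-bs and Hba-a1, gained. With the replicate block 22.4% of all genes rose, beside 27.4% of the replication-dependent genes.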
